A study of Mus musculus with 6 samples.

Results

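The Rtl1-antisense miRNAs are the products of 5 hairpins that lie on the strand opposite to the coding sequence of Rtl1. Their 10 mature arms, named mmu-miR in the labels and miR here, both arms of miR-127, miR-136, miR-431, miR-433 and miR-434, were followed here in small RNAs bound to Argonaute proteins of the mouse brain. A read sequence was taken as a member when its miRNA label was 1 of these 10 names, and the reads per 1000000 of the library (RPM) of all its sequences were added up in each library. The 10 arms held 2167 of the 60110 read sequences with a miRNA label, and they were 10 of 1091 miRNA labels. The tissue was cortex with hippocampus of male C57BL/6J (BL6) mice, with 3 samples of 2 months (2M) and 3 of 18 months (18M), with no further allele or treatment in either group. Ago-RP-Seq uses a GW182 peptide to capture Ago1-4 from a lysate and sequences the small RNAs they hold, the R-sRNAs of the RNA-induced silencing complex (RISC). The 6 libraries held 19272046 to 25080484 reads, so that 3 reads corresponded to 0.12 to 0.156 RPM. Labels marking neurons summed to 228636 to 287286 RPM in every library.

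Rtl1 is a retrotransposon-derived gene of the imprinted Dlk1-Dio3 domain that is expressed from the paternal chromosome. The antisense transcript that carries these hairpins comes from the maternal chromosome, and its miRNAs are known to guide cleavage of the Rtl1 mRNA, to which they are fully complementary. A hairpin gives a duplex of a 5p and a 3p arm, of which Argonaute usually keeps 1 arm as the guide. The guide finds its other targets mainly through its seed near the 5′ end, so a read that starts 1 base earlier or later carries another seed. The 6mer seed, bases 2 to 7, also has a measured 6mer seed viability, the mean viability in percent of 3 mouse cell lines given a short interfering RNA with that seed, in which a low value means a toxic seed.

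In the GRCm38.p6 annotation of RefSeq the hairpins follow each other on the plus strand of chromosome 12. Mir431 lies at chr12:109590447-109590537, Mir433 at chr12:109591715-109591838, Mir127 at chr12:109592846-109592915, Mir434 at chr12:109594506-109594599 and Mir136 at chr12:109595327-109595388. Rtl1 runs on the minus strand at chr12:109589193-109600330, and all 5 hairpins fall into the coding sequence in its long exon. The exact complement of each of the 10 mature sequences was found in the Rtl1 transcript. The RefSeq sequences follow because they are the basis of every start and end given later, with the seed (bases 2 to 8) in capitals.
mmu-miR-127-5p: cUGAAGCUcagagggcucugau
mmu-miR-127-3p: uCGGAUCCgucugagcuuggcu
mmu-miR-136-5p: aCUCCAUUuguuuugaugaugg
mmu-miR-136-3p: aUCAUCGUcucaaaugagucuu
mmu-miR-431-5p: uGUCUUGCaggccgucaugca
mmu-miR-431-3p: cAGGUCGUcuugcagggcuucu
mmu-miR-433-5p: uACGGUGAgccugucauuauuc
mmu-miR-433-3p: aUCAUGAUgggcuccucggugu
mmu-miR-434-5p: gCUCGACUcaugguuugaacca
mmu-miR-434-3p: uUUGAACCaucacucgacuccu
No pair of the 10 shared bases 2 to 8, nor bases 2 to 7. Antisense to 1 gene, they therefore do not form a seed family.

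Levels in the RISC spanned from 47.8 RPM for miR-431-3p to 10693 RPM for miR-136-5p, as means of 6 libraries. All mature arms are 21 or 22 bases long, so that RPM can be set side by side without a length correction, although the efficiency of ligation can differ between sequences. miR-136-5p ranked 23rd among the 1091 labels, miR-127-3p 27th, miR-434-3p 42nd and miR-136-3p 71st. The other 6 ranked between 101 and 330. The 10 arms together took 2.31% to 4.63% of a library.

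The abundant arms differed greatly in how reproducible they were. miR-127-3p, known as a repressor of Bcl6, was at 8405, 9772 and 9694 RPM in the 2M libraries and at 8518, 9498 and 9241 RPM in the 18M libraries. miR-434-3p was at 5738, 5897 and 5693 RPM at 2M and at 5525, 6388 and 5642 RPM at 18M. The highest library exceeded the lowest by a factor of 1.16 for both of these arms. miR-136-5p was at 8489, 26809 and 6175 RPM at 2M and at 10232, 2718 and 9736 RPM at 18M. Here the factor was 9.87, with the highest value in a young and the lowest in an old library, and the other 4 libraries lay between these extremes. Its sister arm miR-136-3p was at 1847, 1419 and 2100 RPM at 2M and at 3664, 1922 and 2953 RPM at 18M. It had its lowest value in the library in which miR-136-5p was highest, and its ages overlapped because 18M replicate 2 lay below 2M replicate 3.

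**Figure D1:**
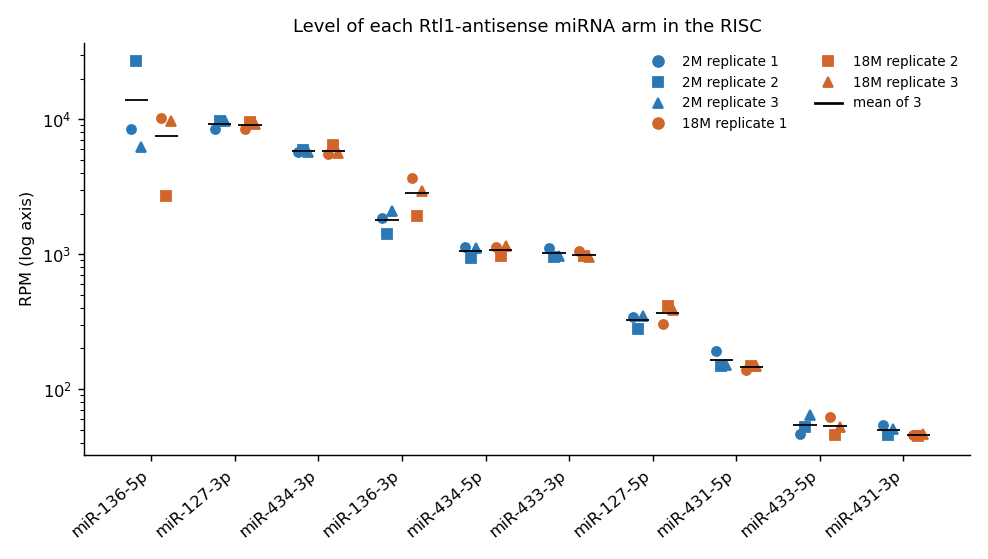
RPM (log axis) of the 10 Rtl1-antisense arms in the 6 libraries, ordered by mean level, with 1 symbol for each library, blue for 2M, orange for 18M and a bar for the mean of 3. The points of miR-127-3p and miR-434-3p nearly coincide, while those of miR-136-5p range from 2718 to 26809 RPM.

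The arms of lower abundance had folds from the lowest to the highest library of 1.18 to 1.48. miR-434-5p was at 1123, 929 and 1114 RPM at 2M and at 1129, 972 and 1142 RPM at 18M. miR-433-3p was at 1119, 948 and 969 RPM at 2M and at 1047, 962 and 953 RPM at 18M. miR-127-5p was at 344, 278 and 346 RPM at 2M and at 305, 410 and 387 RPM at 18M. All 3 arms overlapped between the ages. miR-431-5p, studied for its part in the regrowth of axons, was at 193, 147 and 150 RPM at 2M and at 139, 147 and 147 RPM at 18M. The 2 arms of lowest level were miR-433-5p, at 45.8 to 64.6 RPM over the 6 libraries, and miR-431-3p, at 44.6 to 54.5 RPM. Even these rested on at least 879 reads in a library, with a 95% counting interval of at most ± 6.61% of the value. The 18M libraries of miR-431-3p, with a coefficient of variation of 2.09%, therefore differed by no more than counting error.

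To ask whether age moved the group, log2(RPM + 1) was compared between 18M and 2M with limma over the 466 miRNAs with a mean of at least 10 RPM, a filter that all 10 arms passed. None of the 10 arms had an adjusted p under 0.05 (limma, Benjamini-Hochberg), where 15 of all 466 miRNAs, or 3.22%, had one, and none of the arms did with edgeR or DESeq2. At an unadjusted p under 0.05 the count was 0 of 10 for the arms with limma, 1 of 10 with edgeR and with DESeq2, and 79 of 466 (17.0%) for all miRNAs with limma. Likewise, the ages did not separate without overlap for any of the 10 arms, where they did so for 112 of 466 miRNAs (24.0%). The median log2 fold change of the 10 arms was -0.03 and that of all tested miRNAs -0.07, and 8 of the 10 arms lay within 0.2 of 0 on that scale.

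The 2 exceptions were the miR-136 arms, with opposite signs. miR-136-3p had a log2 fold change of 0.64 (SE 0.27), from 1789 ± 344 RPM at 2M to 2846 ± 876 RPM at 18M (SD, n = 3), and its limma adjusted p was 0.306 (0.0525 unadjusted). With DESeq2 on the recovered whole reads, which called 9.23% of all miRNAs and none of the 10 arms, its adjusted p was 0.0509, and over all alternatives the adjusted p ranged from there to 0.529. miR-136-5p had a log2 fold change of -0.79 (SE 0.71), from 13824 ± 11304 RPM to 7562 ± 4203 RPM (SD, n = 3), with a limma adjusted p of 0.61. The size of that change rested on single libraries: it was -0.16 when 2M replicate 2 was left out, -0.17 when 18M replicate 2 was left out and -1.22 when 2M replicate 3 was left out. Neither arm can be said to have changed with age in these data.

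Next to them, miR-127-5p had a log2 fold change of 0.18 (SE 0.16), miR-431-5p of -0.17 (SE 0.14) and miR-431-3p of -0.13 (SE 0.11), with limma adjusted p-values of 0.61, 0.552 and 0.562. Leaving out 1 library moved these values to between 0.0785 (2M replicate 2 left out) and 0.311 (18M replicate 1) for miR-127-5p. For miR-431-5p they ran from -0.235 (2M replicate 2) to -0.0413 (2M replicate 1), and for miR-431-3p from -0.195 (2M replicate 2) to -0.0696 (2M replicate 1). The 5 remaining arms, miR-127-3p, both arms of miR-433 and both of miR-434, had log2 fold changes from -0.03 to 0.04 with SE of 0.11 to 0.17. The direction of changes that small depended on the scaling of the libraries: those of miR-127-3p, miR-433-3p and miR-433-5p turned from just below to just above 0 under median-of-ratios scaling, a setting that shifted the median of all miRNAs by 0.094.

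Because miR-136-5p made up 11.8% to 57.9% of the reads of the 10 arms, it decided the sum of the group. That sum was 27360, 46297 and 26356 RPM at 2M and 30666, 23107 and 30301 RPM at 18M, and the ages overlapped. Without miR-136-5p the remaining 9 arms summed to 18871, 19488 and 20181 RPM at 2M and to 20435, 20389 and 20565 RPM at 18M. These sums did not overlap, being 949 RPM higher on average at 18M. Without miR-136-3p as well, the sums were 17024, 18068 and 18082 RPM at 2M against 16771, 18467 and 17612 RPM at 18M, and the ages overlapped again.

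The spread between samples of 1 age was expressed as the within-age SD of log2(RPM + 1). Its median was 0.15 over the 10 arms and 0.20 over all 466 miRNAs, and 6 of the 10 arms lay under the latter. miR-434-3p at 0.08, miR-431-3p at 0.09, miR-127-3p at 0.10 and miR-433-3p at 0.11 were the steadiest of the group. miR-136-3p reached 0.39, and miR-136-5p reached 1.10, the third highest of the 466 and the highest of the 105 miRNAs with a mean of at least 1000 RPM. Arms encoded opposite to the same coding sequence thus varied to very different degrees in the same libraries.

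**Figure D2:**
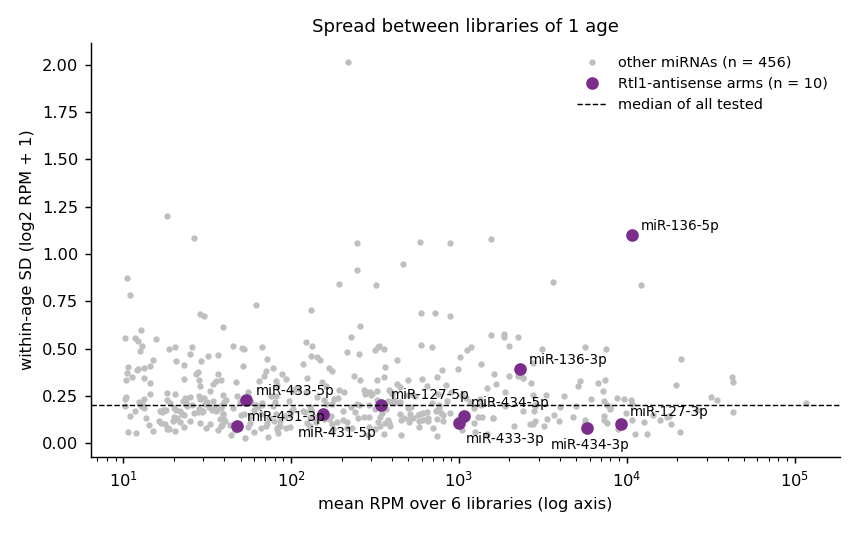
Within-age SD of log2(RPM + 1) against mean RPM (log axis) of the 466 miRNAs tested, with the 10 Rtl1-antisense arms in purple and the median of all (0.20) as a dashed line. miR-136-5p stands at 1.10, the highest of the miRNAs with a mean of at least 1000 RPM, whereas miR-127-3p and miR-434-3p lie under the median.

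The choice of arm differed between the hairpins. miR-127, miR-433 and miR-434 gave mainly the 3p arm, and miR-136 and miR-431 mainly the 5p arm, in each of the 6 libraries. The 3p arm took 95.9% to 97.2% of miR-127 reads, 93.75% to 95.99% of miR-433 reads and 83.0% to 86.8% of miR-434 reads. For miR-431 it took 22.03% to 25.05%. Only in miR-127 and miR-433 did 1 arm hold 93.75% of the reads or more in every library.

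miR-136 was the exception again. Its 3p arm took 17.9%, 5.03% and 25.4% of the reads at 2M and 26.4%, 41.4% and 23.3% at 18M. The ratio of the 5p to the 3p arm was accordingly 4.60, 18.9 and 2.94 at 2M and 2.79, 1.41 and 3.30 at 18M. This ratio differed by -1.43 on the log2 scale between 18M and 2M (SE 0.70), and limma over 144 hairpins with both arms at a mean of at least 10 RPM gave an unadjusted p of 0.0818 and an adjusted p of 0.659. Without 2M replicate 2 the difference was -0.64. None of the 5 hairpins passed the adjusted threshold, and none of all 144 did (0.0%), where 10 (6.94%) had an unadjusted p under 0.05. The ages overlapped in each of the 5 hairpins and did not in 17 of the 144 (11.8%). The within-age SD of the miR-136 ratio, 1.09, was the second highest of 144, against a median of 0.29, while those of the other 4 hairpins were 0.10 to 0.26.

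**Figure D3:**
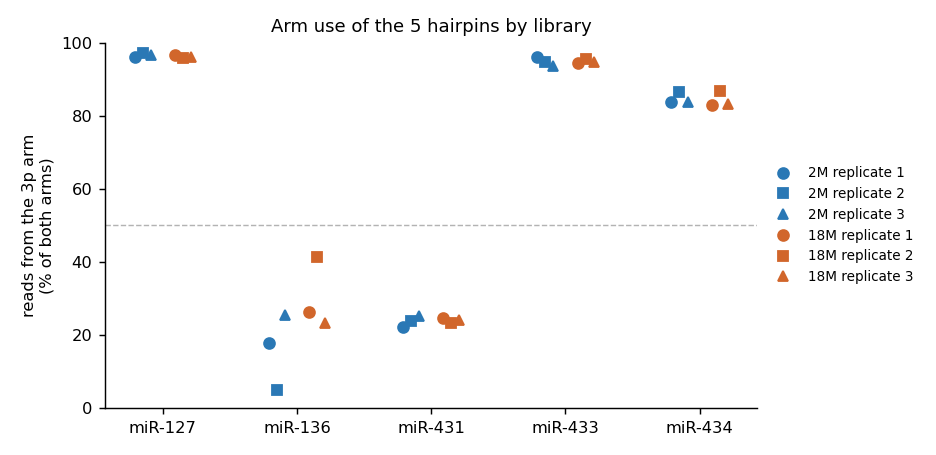
Share of reads from the 3p arm, in percent of both arms, for each of the 5 hairpins in the 6 libraries (blue 2M, orange 18M), with a dashed line at equal use. miR-127, miR-433 and miR-434 lie above 80%, miR-431 near 24%, and miR-136 ranges from 5.03% to 41.4%.

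Argonaute is known to prefer guides that begin with U or A. The main read of the stronger arm began with U or A in all 5 hairpins, U in miR-127-3p, miR-431-5p and miR-434-3p and A in miR-136-5p and miR-433-3p. The main read of the weaker arm did so in 2 of 5, miR-136-3p and miR-433-5p, while those of miR-127-5p and miR-434-5p began with G and that of miR-431-3p with C. Among all 144 hairpins the stronger arm began with U or A in 74.3% and the weaker arm in 52.1%.

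For most of the group the 5′ end was sharply set. miR-431-5p, miR-433-5p, miR-136-5p, miR-433-3p, miR-127-3p and miR-434-3p started at the RefSeq position in 93.6% to 98.7% of their reads, as means of 6 libraries. Their 6mer seeds and viabilities were thus nearly fixed, with a viability of the main seed of 33.9% for miR-127-3p, 49.7% for miR-431-5p, 71.2% for miR-433-5p, 71.4% for miR-136-5p, 79.4% for miR-433-3p and 85.6% for miR-434-3p. The 2 steady abundant arms thus had the lowest seed viability of these, in miR-127-3p, and the highest, in miR-434-3p. The other 4 arms, all of them the weaker arm of their hairpin, were mixtures of starts.

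miR-127-5p was found mainly in a form that starts 2 bases after the RefSeq start. The main read of each form follows, with the 6mer seed in capitals, since the shift exchanges the seed.
start 2 bases later: gAAGCTCagagggctctgatt
RefSeq start: cTGAAGCtcagagggctctgatt
The later start has the seed AAGCUC with a viability of 54.6%, and the RefSeq start UGAAGC with 16.2%. The later start made up 61.8%, 68.1% and 65.1% of miR-127-5p reads at 2M and 61.1%, 49.5% and 47.6% at 18M. The RefSeq start made up 31.1%, 24.8% and 28.3% at 2M and 31.6%, 43.4% and 45.3% at 18M. The ages did not overlap in either share, but 18M replicate 1 lay within 1 percentage point of the nearest 2M library, and the other old libraries carried the difference. The mean seed viability of miR-127-5p reads was 41.9%, 44.4% and 42.7% at 2M and 41.9%, 37.3% and 36.6% at 18M. The 23-base read with the RefSeq start, printed above, was at 43.9, 37.9 and 34.4 RPM at 2M and 43.0, 61.4 and 63.3 RPM at 18M (limma unadjusted p 0.0374, adjusted p 0.345).

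miR-136-3p was divided over 3 starts, and its main seed held only 49.7% of the reads on average, the ninth lowest of 466 miRNAs, whose median was 96.1%. The 3 forms are shown by their main reads, again with the 6mer seed in capitals.
start 1 base earlier: cATCATCgtctcaaatgagtct
RefSeq start: aTCATCGtctcaaatgagtct
start 1 base later: tCATCGTctcaaatgagtctt
The seed of the earlier start has a viability of 37.3%, that of the RefSeq start 83.4% and that of the later start 30.2%, so that 1 arm carried seeds of low and of high viability. The RefSeq start made up 42.5%, 50.3% and 52.5% at 2M and 50.5%, 47.9% and 54.3% at 18M. The earlier start made up 26.5% to 36.6% and the later one 10.7% to 18.9% over the 6 libraries. The ages overlapped in each of the 3 shares. The main read with the RefSeq start was at 559, 486 and 906 RPM at 2M and at 1504, 716 and 1332 RPM at 18M, a difference that did not pass the adjusted threshold (limma unadjusted p 0.0443, adjusted p 0.367).

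miR-431-3p and miR-434-5p had 1 prevailing start each. miR-431-3p started at the RefSeq base in 72.5%, 70.0% and 77.9% of its reads at 2M and in 66.2%, 66.8% and 65.0% at 18M. The remainder started mainly 2 or 3 bases earlier, with 15.9% and 13.4% on average. miR-434-5p started at the RefSeq base in 74.3%, 72.6% and 73.1% at 2M and in 70.7%, 70.5% and 72.6% at 18M, and 1 base earlier in most of the others. Its forms had nearly the same viability, 70.8% for the RefSeq start and 74.8% for the earlier one, so that this shift hardly touched the mean.

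The share of reads with the main seed of the arm did not overlap between the ages in 5 of the 10 arms, miR-127-3p, miR-127-5p, miR-431-3p, miR-433-3p and miR-434-5p, where it did so in 65 of the 466 miRNAs (13.9%). The mean seed viability, computed from the same reads and so not a separate result, separated in the same 5 arms and in 57 of the 466 (12.2%). Some gaps were very small. In miR-434-5p the lowest share at 2M was 72.717% and the highest at 18M 72.705%, and the nearest viabilities were 71.825% and 71.832%. In miR-127-5p the nearest viabilities were 41.94% at 2M and 41.85% at 18M. No test was run on these shares. The differences were of unequal size. The mean share at 18M minus that at 2M was -12.3 percentage points in miR-127-5p, -7.41 in miR-431-3p, -2.06 in miR-434-5p, -0.361 in miR-433-3p and 0.583 in miR-127-3p. Over all reads of the 10 arms the mean seed viability was 61.5%, 64.8% and 59.5% at 2M and 62.0%, 58.5% and 61.3% at 18M, following the share of miR-136-5p. Without miR-136-5p it was 56.3% to 57.7% in the 6 libraries, against 57.4% to 58.2% for all reads in the table.

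At the 3′ end the arms were less exact. The main read of miR-127-3p was 2 bases shorter than the RefSeq sequence, and such reads made up 35.2% to 38.6% of the arm, against 20.26% to 23.02% for reads with the RefSeq end. The 2 main reads are shown because this arm alone supplied 21.1% to 41.1% of the reads of the group.
20 bases: tCGGATCcgtctgagcttgg
22 bases: tCGGATCcgtctgagcttggct
Their 6mer seed is the same. Most reads of miR-136-3p, 59.2% to 76.0%, ended 1 base before the RefSeq end.

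The excess of miR-136-5p in 2M replicate 2 lay mainly in its reads of 22 and 23 bases. The read with the RefSeq ends and the read with 1 more base, an A that is also the next base of the hairpin, are given here.
22 bases: aCTCCATttgttttgatgatgg
23 bases: aCTCCATttgttttgatgatgga
The 22-base read was at 5185, 11371 and 3813 RPM at 2M and at 5459, 1541 and 5430 RPM at 18M. The 23-base read was at 1651, 12891 and 1145 RPM at 2M and at 2544, 446 and 2614 RPM at 18M. In 2M replicate 2 the longer form was the main read, which it was in no other library. Single reads with the RefSeq start that matched the hairpin to their last base were compared between 2M replicate 2 and 2M replicate 1. They were 7.81 times as high in 2M replicate 2 at 23 bases and 2.19 times at 22 bases. At 21 and 20 bases the factors were 1.17 and 1.05. At 24 bases it was 1.91, from 9.19 RPM in 2M replicate 1 to 17.6 RPM in 2M replicate 2. A more abundant 24-base read, with an A beyond the hairpin match, was at 231 and 592 RPM in these 2 libraries. The ratio of the 23-base to the 22-base read was 0.318, 1.13 and 0.30 at 2M and 0.466, 0.289 and 0.481 at 18M. Without the 23-base read, miR-136-5p was at 6838, 13918 and 5030 RPM at 2M and 7688, 2272 and 7123 RPM at 18M, with the same highest and lowest library.

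A shift to longer reads was not general in that library. Of miRNA reads other than miR-136-5p, 19.6% to 20.7% had 23 bases or more in the 6 libraries, with the lowest value in 2M replicate 2, and 20.5% ended in A there against 22.5% to 25.1% elsewhere. The RefSeq sequence and the same read with an A added were both at a mean of at least 10 RPM in 118 miRNAs, miR-136-5p among them. The A was taken whether or not it is the next base of the hairpin, as it is in miR-136-5p. The ratio of the longer to the shorter read was highest in 2M replicate 2 for 10 of the 118, with miR-136-5p as 1 of the 10. The median over these miRNAs of the log2 ratio, relative to the median of the 6 libraries for each, was -0.20 in 2M replicate 2, where that of miR-136-5p was 1.56.

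The miRNAs most like miR-136-5p across the libraries were sought among all tested miRNAs outside the group by the root mean square difference of log2(RPM + 1) profiles, each centred on its own mean over 6 libraries. The 5 nearest were miR-873a-5p at 0.27, miR-879-5p at 0.29, miR-144-3p at 0.40, miR-216a-5p at 0.47 and miR-219a-5p at 0.48, where miR-136-5p itself had a root mean square deviation of 0.98. miR-873a-5p was at 270, 625 and 243 RPM at 2M and at 364, 111 and 304 RPM at 18M. miR-219a-5p, an oligodendrocyte miRNA, was at 2209, 6882 and 2455 RPM at 2M and at 3535, 1720 and 5051 RPM at 18M. Of the 466 miRNAs, 59 (12.7%) had their highest level in 2M replicate 2 and their lowest in 18M replicate 2, as miR-136-5p did. No other member of the group was among them.

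Some marker lists, but not all, had their extremes in these 2 libraries as well. The 3 oligodendrocyte markers, miR-219a-5p among them, summed to 13932 RPM in 2M replicate 2 and to 6659 to 11213 RPM in the others. Their lowest value lay in 2M replicate 3, with 7556 RPM in 18M replicate 2. Without miR-219a-5p, already named for its likeness to miR-136-5p, the other 2 summed to 7050 RPM in 2M replicate 2. In the other libraries they summed to 4204 to 6230 RPM, again lowest in 2M replicate 3. The 4 markers of vessels summed to 17001 RPM in 2M replicate 2 and to 10104 RPM in 18M replicate 2, their highest and lowest values. Those of the 4 markers of microglia and immune cells fell into the same libraries, at 3821 and 2453 RPM. This sum also did not overlap between the ages, at 3398 to 3821 RPM at 2M and 2453 to 2992 RPM at 18M. Of 4 erythrocyte markers 3 had a label of their own, miR-144-3p among them. Reads of miR-486a-5p carried a joint label with miR-486b-5p (mean 172 RPM), which did not enter the sum. The 3 summed to 1120 RPM in 18M replicate 2, their lowest value, and to 3456 RPM in 2M replicate 2. They were highest in 2M replicate 3 at 3509 RPM. The 6 neuronal markers were highest in 18M replicate 2, as were those of olfactory or epithelial cells. Markers of choroid plexus and pituitary had neither their highest nor their lowest sum in these 2 libraries. All of these markers with a label of their own were present at 1 RPM or more, and their part in the spread of miR-136-5p was not tested. In tissue, fewer cells of a type and less of an RNA per cell cannot be told apart.

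**Figure D4:**
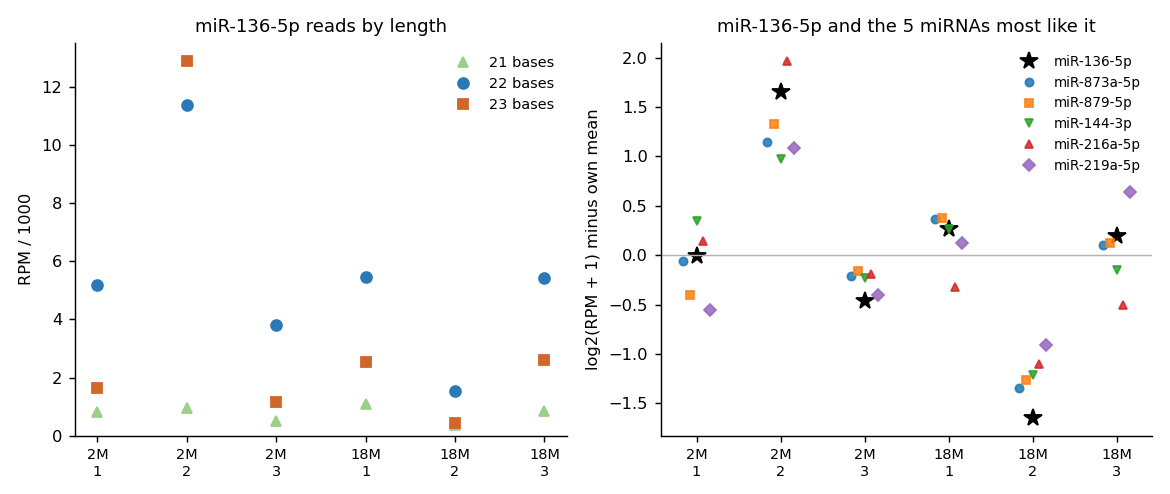
Left, RPM divided by 1000 of the miR-136-5p reads of 21, 22 and 23 bases that start at the RefSeq base and match the hairpin, in each library. Right, log2(RPM + 1) minus the mean of 6 libraries for miR-136-5p and the 5 miRNAs most like it, all of which are highest in 2M replicate 2 and lowest in 18M replicate 2.

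No single read of the group passed the adjusted threshold either. Of the member reads, 109 sequences had a mean of at least 10 RPM, and none of them had an adjusted p under 0.05 (limma over 3281 sequences, of which 12, or 0.366%, had one). An unadjusted p under 0.05 was reached by 5 of the 109 (4.59%), against 428 of 3281 (13.0%). The 5 belonged to miR-127-3p, miR-127-5p, miR-136-3p and miR-433-3p. The highest fold change of them was that of an 18-base read of miR-127-3p, 4 bases short of the RefSeq end, at 38.2, 29.1 and 8.63 RPM at 2M and 46.5, 67.2 and 56.9 RPM at 18M (log2 fold change 1.35, SE 0.50, limma adjusted p 0.315).

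The Dlk1-Dio3 domain holds further miRNAs on the maternal transcript. Of labels from the neighbourhood of Rtl1 and Meg3, 8 passed the filter, none was called, and their median log2 fold change was -0.02. The 3 highest were miR-337-3p, miR-770-5p and miR-337-5p, whose log2 fold changes were 0.07 (SE 0.34), 0.75 (SE 0.34) and -0.30 (SE 0.15), at limma adjusted p-values of 0.925, 0.318 and 0.379. Of the large miR-379/410 cluster downstream, 57 labels passed the filter, 9 with a log2 fold change above 0 and 48 below, with a median of -0.20. Only miR-412-5p fell with an adjusted p under 0.05, from 53.7, 49.0 and 62.4 RPM at 2M to 20.9, 29.1 and 29.7 RPM at 18M (log2 fold change -1.03, SE 0.17, limma adjusted p 0.0311). This call was lost when any library other than 18M replicate 2 was left out, with adjusted p-values of 0.0782 to 0.107. The 3 most abundant of the cluster, miR-369-3p, miR-410-3p and miR-300-3p, differed by -0.16, -0.16 and -0.15 on the log2 scale, none past the threshold (limma adjusted p 0.511, 0.68 and 0.79). The Rtl1-antisense arms, with a median of -0.03, lay nearer to the Meg3 side than to the cluster, but no test of that difference was made.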

How the data were processed

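Ago-RP-Seq was carried out on cortex with hippocampus of mice, 3 samples of 2M and 3 of 18M. Lysates were pulled down with a GW182 peptide, and RNA ligated to an adapter was cut from a gel. Its position was found with size markers of 19 to 35 bases, and libraries were sequenced on a HiSeq instrument. The authors trimmed the reads (Trim Galore is named in the processing notes, without a version), collapsed them, removed rare reads, labelled them by SPOROS and deposited 1 table of 143934 read sequences in RPM, with 2 annotation columns. The viability score of each seed, a mean of 3 mouse cell lines in percent, was added by the authors from a table of seeds and can exceed full viability. The genome build they used is not given in the sources used here. All values in RPM came out as whole reads within 0.05 read, giving 19272046 to 25080484 reads per library. A pooled total column was not used.

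RPM were summed by miRNA label with pandas 2.3.3. No member read carried more than 1 label. Labels with a mean of at least 10 RPM entered limma 3.58.1 with trend on log2(RPM + 1), 18M against 2M, 3 libraries each, with Benjamini-Hochberg adjustment over all labels, hairpins or sequences tested. Fold changes are on that scale. Alternatives were edgeR 4.0.16 and DESeq2 1.42.0 on recovered reads, other pseudocounts, filters and scalings, a replicate block and leaving out each library. Leaving out both miR-136 arms or the 23-base read was added after seeing the data. Reads were placed on the RefSeq hairpins (GRCm38.p6) by exact match of at least 15 bases. The scripts were tested on simulated data. The members and lists were chosen with earlier results of these data known. All 10 members are named, each with its main reads and any reads past the threshold. For the most variable and the most abundant member, both miR-136-5p, the 5 most like miRNAs are named, and of each neighbouring list the 3 most abundant and those called. Reads with an unadjusted p under 0.05, other forms and marker lists were described after their values were seen. Marker lists for other cell types were the ones for oligodendrocytes, microglia and immune cells, vessels, erythrocytes, olfactory or epithelial cells, choroid plexus and pituitary. Of these, the 3 pituitary markers summed to 3342 RPM in 2M replicate 1 and to 414 to 484 RPM elsewhere. Erythrocyte markers (3 of 4, without the joint label of miR-486a-5p) summed to 1120 to 3509 RPM. Choroid plexus markers summed to 2545 to 3019 RPM and olfactory or epithelial markers to 28949 to 48013 RPM. The labels do not say more on how replicates were taken than that they are separate samples, so p-values measure the spread between these samples. Intervals cover counting error only.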

Additional observations from a re-analysis of the deposited data

Results flagged for a closer look

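Reads outside the miRNA label column were seen for these hairpins: the second annotation column placed 1233 further sequences on the 5 hairpins, at a mean of 561 RPM in all, which entered no comparison. Those of miR-136 were at 194, 533 and 141 RPM at 2M and at 253, 88.1 and 241 RPM at 18M, and those of miR-127 at 146 to 176 RPM in the 6 libraries. They were taken up because they lie above the limit that a count of 0 allows, 0.12 to 0.156 RPM.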

How the results depend on the processing

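None of the 10 arms, 5 arm ratios or 109 member reads had an adjusted p under 0.05 under any alternative run for it, with limma, edgeR or DESeq2 (0 or 1 arm, 0 or 1 ratio and 0 to 19 reads unadjusted). The number of all miRNAs with one went from 15 to 43 with DESeq2, 2 with a mean of at least 100 RPM, 3 without a filter, 1 with the replicate block, and 0 to 15 with 1 library left out (0 in each fit without a 2M library, where 68 to 75 passed unadjusted, and 1 without 18M replicate 1 or 3). The causes were not tested. With edgeR 14 of 466 passed, 2 of them (14.3%) higher at 18M, with median-of-ratios scaling the split was the same, and with DESeq2 14 of 43 (32.6%) were higher, against 1 of 15 (6.67%) in the limma fit. Same-numbered samples share only a number: their deviations from the age means correlated at -0.171, -0.222 and -0.101, and none correlated best with its own number. The log2 fold change of miR-127-3p turned from -0.0303 to 0.065 with median-of-ratios scaling, 0.0497 with edgeR and 0.0605 with DESeq2, that of miR-433-3p from -0.033 to 0.0622, 0.0463 and 0.0574, and that of miR-433-5p from -0.0242 to 0.0693, 0.0479 and 0.0608. With only reads of 1 label and its main seed, miR-127-5p turned to -0.13, miR-434-5p to -0.00501, and the arm ratios of miR-127, miR-431 and miR-434 to -0.105, 0.112 and -0.0224. With 1 library left out the log2 fold changes ranged from -0.101 to 0.0155 for miR-127-3p, -0.0784 to 0.0416 for miR-433-3p, -0.138 to 0.103 for miR-433-5p, -0.0488 to 0.0558 for miR-434-3p and -0.0531 to 0.111 for miR-434-5p, and the arm ratios from -0.0929 to 0.0283 for miR-431, -0.168 to 0.165 for miR-433 and -0.0841 to 0.16 for miR-434. Of the neighbours, miR-337-3p ranged from -0.259 to 0.264 and miR-300-3p from -0.294 to 0.0814. miR-412-5p lost its call without a filter (adjusted p 0.055) and with the replicate block (0.149). miR-136-3p stayed above 0 (0.43 to 0.90) and miR-136-5p below 0 (-1.22 to -0.16). The difference in the sum of the 10 arms, -5313 RPM, was -8803 to 1167 RPM, the latter without 2M replicate 2. It was 949 RPM without miR-136-5p, and, in settings chosen after seeing the data, -108 RPM without both miR-136 arms and -1951 RPM without the 23-base read of miR-136-5p. The median within-age SD was 0.12 to 0.17, and 5 or 6 arms separated in main-seed share. Counting error was at most 6.61% of a member's value, and covers neither the animals nor the preparation of the libraries.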

Other observations

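miR-136-3p was compared with all other tested miRNAs in the same way as miR-136-5p, a comparison added after its values were seen. The 5 nearest profiles were those of miR-29a-3p, with a root mean square difference of 0.19, miR-376a-3p (0.20), miR-101a-3p (0.21), miR-29a-5p (0.22) and miR-101b-3p (0.22), where miR-136-3p itself deviated by 0.45 from its mean over 6 libraries. miR-29a-3p was at 28793, 27229 and 31067 RPM at 2M and at 45484, 30537 and 43090 RPM at 18M. miR-376a-3p, of the miR-379/410 cluster, was at 1317, 1274 and 1545 RPM at 2M and at 3941, 1475 and 2339 RPM at 18M. In both, as in miR-136-3p, 18M replicate 2 lay nearest to the 2M libraries and 2M replicate 2 was the lowest. None of these 5 was among the 5 most like miR-136-5p.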
